A study of Homo sapiens with 16 samples.

Results

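Extracellular vesicles (EVs) released by PC3, a prostate cancer cell line, were set against PC3 cells. The 6 EV libraries and the 2 cell libraries were all the PC3 libraries of the series, 8 of its 16. EVs were isolated from conditioned medium by next-gen ATPS, UC or exoRNeasy, with 2 libraries each. Next-gen ATPS partitions EVs between PEG and dextran phases and removes the dextran with an enzyme, UC is ultracentrifugation and exoRNeasy is a kit that binds EVs to a column. The labels call the UC libraries VC, and UC is the one remaining method that the sources give for them. All groups share the same wild-type line, are labelled as untreated, and came from cells maintained with 5% FBS. Before the medium was collected for EVs, the donor cells were kept in serum-free medium. Whether the sequenced cells were also kept without serum is not stated in the sources used, so serum and material cannot be told apart. The RNA of next-gen ATPS EVs, of UC EVs and of cells was extracted with TRIzol and that of exoRNeasy EVs with the kit, so isolation method and extraction cannot be told apart for exoRNeasy. Next-gen ATPS may also recover RNA outside vesicles, and all 8 libraries come from a single line. It is not stated whether both libraries of a group came from different cultures, so each p-value reflects the scatter of libraries, which may be technical only.

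MiRNAs are short RNAs, cut as pairs of arms (5p and 3p) from a hairpin, that pair through a seed at their 5′ end with mRNAs and repress them. SnoRNAs guide modification of ribosomal RNA in the nucleolus, with C/D box snoRNAs guiding methylation and H/ACA box snoRNAs guiding pseudouridylation, and a few of them take part in cutting the rRNA precursor. CircRNAs are closed loops made by back-splicing. EVs carry all of these, and the comparison asks which RNAs differ from the donor cells whichever way the EVs were isolated.

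Depth within a class differed greatly between the materials. The next-gen ATPS libraries held 5027 and 4612 miRNA reads, the UC libraries 14612 and 14515, the exoRNeasy libraries 3162 and 2508, and the cell libraries 34422 and 97408. One miRNA read was therefore worth 68.4 to 399 TPM in EVs and 29.1 and 10.3 TPM in cells. SnoRNA reads ranged over 41519 to 100919 in EVs, against 3555333 and 10849128 in cells. TPM here is a library's share of reads within an RNA class, scaled so that each class sums to the same total, so a gain of one species lowers all others of its class. In the circRNA class EVs held more reads, and the entry hsa_circ_0040314 alone had 15809316 to 21389916 in EVs against 45905 and 133497 in cells. The authors brought libraries to the same concentration before pooling. Reads of a class therefore measure neither the amount of RNA nor the number of EVs. Of 6 markers of PC3, 4 were listed in the miRNA table, with a summed level of 527649 to 607917 TPM in EVs and 256365 to 263494 TPM in cells. Of these, hsa-miR-200c-3p had 0 reads in EVs and 1 read in cells, while hsa-miR-141-3p and hsa-miR-205-5p were not listed. The rest moved in opposite directions. On average hsa-miR-182-5p stood at 515163 TPM in EVs and 97104 in cells. The means of hsa-miR-222-3p were 39840 and 159337 TPM, and those of hsa-miR-221-3p were 2078 and 3484 TPM. Of 22 markers of other cell types 3 were listed, and they summed to 0 to 827 TPM in EVs and 581 to 893 TPM in cells.

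The balance between classes differed between EVs and cells. There were 8.56 and 9.0 snoRNA reads per miRNA read in next-gen ATPS EVs, 6.91 and 6.49 in those of UC and 16.9 and 20.3 in those of exoRNeasy, against 103 and 111 in cells. All 6 EV libraries lay below both cell libraries, with a mean log2 difference of -3.38, or 10.4-fold lower in EVs. An exact two-sided permutation test gave p = 0.0714, the smallest that 8 libraries split 6 to 2 can give.

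Each method was compared with cells by limma on log2(TPM + pseudocount), and a species was called shared when it passed an adjusted p of 0.05 in the same direction in each of the 3 methods against cells. The 3 comparisons share the same 2 cell libraries. Of 75 miRNA entries tested, 7 (9.33%) were higher in EVs of all 3 methods and 15 (20%) were lower. All EV values lay above both cell values in 15 of the 75 (20%) and below both in 26 (34.7%). This held for every called entry. The mean of the 3 methods differed from cells for 23 higher (30.7%) and 26 lower (34.7%) entries, and 23 (30.7%) differed between the methods. The median log2 difference of all tested entries was -0.49, which TMM scaling, a scaling that discounts dominant species, moved to 0.01. With TMM the shared split was 13 higher and 10 lower, and it kept 7 of the 7 and 10 of the 15. The entries lost were hsa-miR-425-5p, hsa-miR-103a-3p, hsa-miR-454-3p, hsa-miR-1307-3p and hsa-miR-1301-3p, with limma adjusted p-values of 0.129, 0.0922, 0.125, 0.0828 and 0.0812. Of the entries that passed the filter on low levels, 5 of the 7 higher passed through EVs alone and 7 of the 15 lower through cells alone. The filter thus largely set the direction of these. The 5 were hsa-miR-27a-5p, hsa-miR-663b, hsa-miR-3614-5p, hsa-mir-3648-1 and hsa-mir-3648-2, and p-values given for them are descriptions. The 7 were hsa-miR-125a-5p, hsa-miR-92a-3p, hsa-miR-454-3p, hsa-miR-1301-3p, hsa-miR-1307-3p, hsa-mir-3607 and hsa-mir-584, and values given for them are descriptions too. Without exoRNeasy replicate 1 the shared higher count was 12, and without cell replicate 2 the shared lower count was 9. On average the counts without cell replicate 1 were 8 higher and 17 lower, and without cell replicate 2 they were 8 and 15. The count between methods was 42 without either exoRNeasy library. Of the shared entries, 8 lost their call when some single library was left out, and these were hsa-miR-3614-5p among the higher and hsa-miR-425-5p, hsa-miR-103a-3p, hsa-miR-92a-3p, hsa-miR-454-3p, hsa-miR-1307-3p, hsa-miR-1301-3p and hsa-mir-584 among the lower.

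The mature miRNAs on which this comparison turns are given as RefSeq has them (GRCh38.p14), 5′ to 3′, with the seed in capitals. They are shown so that the arms and families that move together or apart can be compared.
hsa-miR-27a-5p: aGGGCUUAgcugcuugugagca
hsa-miR-27a-3p: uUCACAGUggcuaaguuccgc
hsa-miR-182-5p: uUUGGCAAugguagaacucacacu
hsa-miR-663b: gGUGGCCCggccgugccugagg
hsa-miR-3614-5p: cCACUUGGaucugaaggcugccc
hsa-miR-21-5p: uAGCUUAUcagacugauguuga
hsa-miR-4521: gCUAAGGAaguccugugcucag
hsa-miR-125a-5p: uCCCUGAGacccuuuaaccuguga
hsa-miR-92a-3p: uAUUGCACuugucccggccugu
hsa-miR-221-3p: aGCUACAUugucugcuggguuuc
hsa-miR-222-3p: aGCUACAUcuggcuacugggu
hsa-miR-103a-3p: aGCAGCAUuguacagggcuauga
hsa-miR-107: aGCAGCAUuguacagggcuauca
Here hsa-miR-221-3p and hsa-miR-222-3p share the seed GCUACAU, and hsa-miR-103a-3p and hsa-miR-107 share GCAGCAU and nearly all other bases, so reads of the last pair may be split between them and are uncertain. The miRNAs higher in EVs in all 3 methods, hsa-miR-27a-5p, hsa-miR-182-5p, hsa-miR-663b and hsa-miR-3614-5p, have 4 different seeds.

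**Figure D1:**
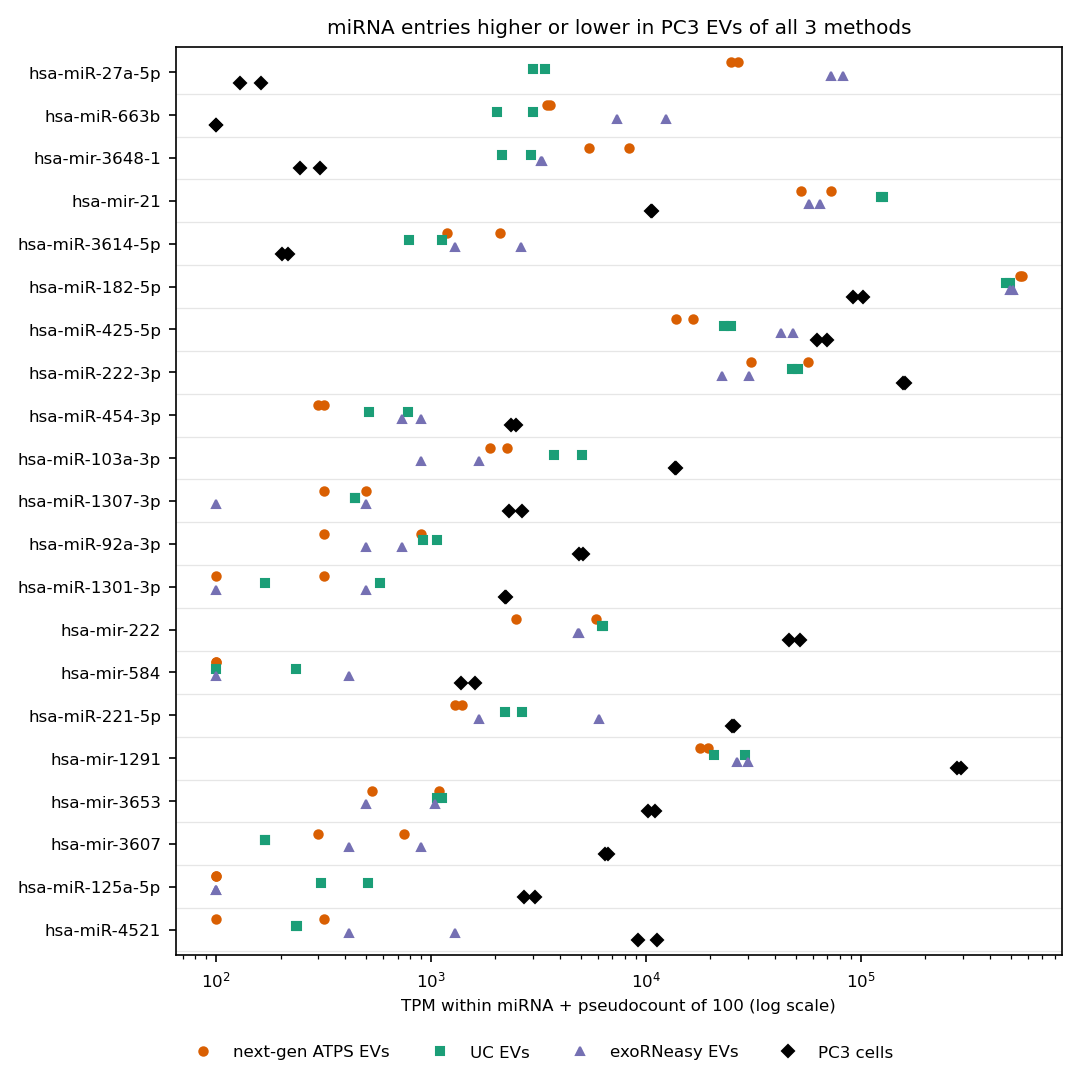
TPM within miRNA plus a pseudocount of 100 (log axis) for the entries with the largest shared differences, with a point for each next-gen ATPS, UC and exoRNeasy EV library and each PC3 cell library. The EV points of hsa-miR-27a-5p lie at 2874 TPM or more against 61.6 TPM or less in cells, and those of hsa-mir-1291 at 29904 TPM or less against 281004 TPM or more in cells.

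The largest shared rise was in hsa-miR-27a-5p, the 5p arm of the miR-27a hairpin (chr19:13836440-13836517, minus strand, in the host gene MIR23AHG). It stood at 26656 and 24935 TPM in next-gen ATPS EVs, 2874 and 3307 in those of UC and 72422.5 and 82935 in those of exoRNeasy, against 29.1 and 61.6 TPM in cells, which are 1 and 6 reads. Every EV library lay far above both cell libraries, and the exoRNeasy libraries were the highest. The log2 difference from cells was 7.01 (SE 0.23) on average with a limma adjusted p of 1.37e-08, and by method it was 7.49 for next-gen ATPS, 4.46 for UC and 9.07 for exoRNeasy. The entry passed the filter through EVs alone, so its direction was set by the filter and the p-value is a description.

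The other arm of that hairpin, hsa-miR-27a-3p, which is the arm best known as a repressor, did not pass the test (log2 difference 0.16, SE 0.35, limma adjusted p 0.68). The number of 5p reads per 3p read was 4.06 and 3.11 in next-gen ATPS EVs, 0.389 and 0.490 in those of UC and 57.3 and 26 in those of exoRNeasy, against 0.00746 and 0.0135 in cells. The 5p arm was thus the scarcer arm in cells and in UC EVs, and the more abundant one in next-gen ATPS and exoRNeasy EVs. Such a ratio does not depend on the class total, but this pair was chosen after its values were seen and has no test. The hairpin of RefSeq is shown with both arms in capitals, 5p first.
MIR27A: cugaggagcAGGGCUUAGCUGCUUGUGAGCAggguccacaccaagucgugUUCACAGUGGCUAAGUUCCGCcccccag

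The most abundant miRNA of the EVs was hsa-miR-182-5p, of the miR-183, miR-96 and miR-182 cluster that is active in sensory cells and in many carcinomas. Its level was 549433 and 562229 TPM in next-gen ATPS EVs, 475568 and 493421 in those of UC and 513915 and 496412 in those of exoRNeasy, against 102028 and 92179 TPM in cells. The EV values did not overlap the cell values and averaged 5.31-fold higher (log2 difference 2.41, SE 0.06, limma adjusted p 1.26e-09). Of the 4 entries of its cluster tested, 1 was higher in all 3 methods, beside 9.33% of all tested entries. With TMM scaling 3 were, which adds hsa-mir-182 and hsa-miR-183-5p, and the median log2 difference of the cluster was 1.12. Reads of hsa-miR-182-5p per read of hsa-miR-222-3p ranged over 9.34 to 22.9 in EVs, against 0.646 and 0.574 in cells.

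Some of the higher entries carry the name of a precursor. The entry hsa-mir-21, the precursor of miR-21, stood at 52914 and 73070 TPM in next-gen ATPS EVs, 127224 and 124561 in those of UC and 57558.5 and 64593 in those of exoRNeasy, against 10487.5 and 10543 TPM in cells. It lay above cells in every EV library (log2 difference 2.88, SE 0.14, limma adjusted p 1.54e-07), although the call ended when all 16 libraries were fitted together (largest limma adjusted p of the 3 methods 0.174). That fit includes cell replicate 2 of MDA-MB-231, the other line of the series, with 153 miRNA reads against 44370 in its replicate. Such a library may widen the common spread. The mature 5p arm of miR-21, hsa-miR-21-5p, an abundant miRNA of cancer cells, differed by 0.41 (SE 0.16, limma adjusted p 0.0445 on average), with EV and cell values that overlapped. It was not called in all 3 methods, although with TMM scaling and in edgeR it was called higher in all 3. Reads of hsa-mir-21 per read of hsa-miR-21-5p were 6.65 and 9.63 in next-gen ATPS EVs, 14.8 and 15.2 in those of UC and 2.89 and 3.86 in those of exoRNeasy, against 1.34 and 1.31 in cells. The entries hsa-mir-3648-1 and hsa-mir-3648-2 held the same read counts and are taken as 1 observation, at 2053 to 8239 TPM in EVs and 145 and 205 TPM in cells (log2 difference 3.80, SE 0.30). Together with hsa-miR-663b they were the listed rRNA-like entries higher in all 3 methods, 2 of 4 with different read counts. Over all tested entries 9.33% were higher in all 3 methods. The rRNA-like entries named here passed the filter through EVs alone, so their direction was set by it.

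A single miRNA entry, hsa-miR-663b, had reads in all 6 EV libraries and 0 reads in both cell libraries. It stood at 3382 and 3469 TPM in next-gen ATPS EVs, 2874 and 1929 in those of UC and 7274 and 12360 in those of exoRNeasy. The 0 reads in cells allow up to 22.8 TPM over both cell libraries, and the 6 EV libraries together held 157 reads of 44436, or 3533 TPM. Pooled in this way EVs were at least 155-fold higher, a limit that covers counting error only. The opposite case held for 56 of the 711 entries with reads in any PC3 library. It is not like for like, since it asks for reads in 2 cell libraries of 34422 and 97408 miRNA reads. The first case asks for reads in 6 EV libraries of 2508 to 14612. Among the 56 was hsa-miR-20a-5p of the miR-17 to miR-92 cluster, with 0 of 44436 EV miRNA reads against 349 and 236 TPM in cells. At a limit of 67.5 TPM over the 6 EV libraries it was at least 3.93-fold lower in EVs, again by counting error alone.

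The last higher entry, hsa-miR-3614-5p from TRIM25, stood at 689 to 2530 TPM in EVs and at 116 and 103 TPM in cells. The groups did not overlap (log2 difference 2.74, SE 0.53, limma adjusted p 0.00237), but the EV values rest on few reads, and the call ended without either UC library or either cell library, at a largest limma adjusted p of 0.0724 to 0.137.

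Among the lower entries, hsa-miR-4521 had the largest difference. It stood at 0 and 217 TPM in next-gen ATPS EVs, 137 and 138 in those of UC and 316 and 1196 in those of exoRNeasy, against 11243 and 9127 TPM in cells. Every EV value lay below both cell values (log2 difference -5.02, SE 0.68), but with a pseudocount of 1 the call ended (largest limma adjusted p 0.195). For hsa-miR-125a-5p, a relative of the developmental regulator lin-4 of worms, 4 of the 6 EV libraries held 0 reads and the UC libraries stood at 411 and 207 TPM, against 2963 and 2618 TPM in cells (log2 difference -4.19). Its call ended with a pseudocount of 1, without the filter and without dominant species (largest limma adjusted p 0.0834, 0.0559 and 0.156). The entry passed the filter through cells alone, so its direction was set by the filter and these values are descriptions.

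The miR-221 and miR-222 cluster represses cell cycle inhibitors such as CDKN1B and is abundant in PC3. It was lower through 3 of its 5 tested entries, with a median log2 difference of -2.07, beside 20% of all tested entries. The 3p arm hsa-miR-222-3p stood at 56694 and 30789 TPM in next-gen ATPS EVs, 50917 and 47881.5 in those of UC and 22454 and 30303 in those of exoRNeasy, against 158009 and 160664 TPM in cells (log2 difference -2.07, SE 0.22). The passenger arm hsa-miR-221-5p stood at 1194 to 5981 TPM in EVs and at 25594 and 25142 TPM in cells (log2 difference -3.54, SE 0.44). The precursor entry hsa-mir-222 stood at 2385 to 6228 TPM in EVs and at 52234 and 46105 TPM in cells (log2 difference -3.33, SE 0.29). In each of these 3 entries the groups did not overlap, as in the 26 of 75 tested entries (34.7%) that lay wholly below cells. The seed partner hsa-miR-221-3p did not pass the test (log2 difference -0.86, SE 0.35, limma adjusted p 0.059), so the members that share the seed GCUACAU did not both pass. Reads of hsa-miR-221-5p per read of hsa-miR-221-3p ranged over 0.385 to 2.50 in EVs, against 7.40 and 7.16 in cells.

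The entry hsa-miR-92a-3p, the member of the miR-17 to miR-92 cluster that passed the filter, stood at 217 to 965 TPM in EVs and 4793 and 5030 TPM in cells (log2 difference -2.87), and its call was among those lost when a single library was left out. It passed the filter through cells alone, so its direction was set by the filter. For hsa-miR-103a-3p the levels were 797 to 4960 TPM in EVs and 13625 and 13777 TPM in cells (log2 difference -2.63, SE 0.32). Its near copy hsa-miR-107 differed by -3.14 (SE 0.92) on average but did not pass in next-gen ATPS or UC, where the limma adjusted p was 0.0758 and 0.259, while edgeR called it lower in all 3 methods. For hsa-miR-425-5p the levels were 13726 and 16479 TPM in next-gen ATPS EVs, 23063 and 24871 in those of UC and 48387 and 42663.5 in those of exoRNeasy, against 62460 and 69450 TPM in cells. Its EV values lay below cells (log2 difference -1.37, SE 0.13), with exoRNeasy nearest to them.

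The let-7 family, regulators of differentiation, had 6 tested entries with a median log2 difference of 0.06, and its members differed in direction. The precursor entries hsa-let-7i and hsa-let-7a-3 were higher on average over methods (log2 differences 1.55 and 1.19, limma adjusted p 0.00278 and 0.0059), while hsa-let-7b-5p stood at -1.78 without passing the test (limma adjusted p 0.16). None was called by limma in all 3 methods in either direction, and the count was also 0 at an unadjusted p under 0.05 and by edgeR and DESeq2. The 10 most abundant entries held 83.4% ± 2.04 of miRNA TPM in EVs (SD, n = 6) and 78.6% ± 0.748 in cells (SD, n = 2). By kind of entry, 4 of 50 mature arms were higher and 10 lower in all 3 methods with a median of -0.62. Of 25 hairpin entries 3 were higher and 5 lower with a median of 0.61. The shares over all tested entries were 9.33% higher and 20% lower. The motif GGAG, which a study of other cells tied to loading into vesicles, was searched on the RNA strand in mature sequences, since mature miRNAs are single-stranded. It was in 2 of the 43 tested arms with a RefSeq sequence, in 0 of 4 higher and 1 of 8 lower arms, against 15.7% of all RefSeq mature miRNAs of human. The motif GGCU was in 7 of the 43, in 2 of the 4 higher arms (hsa-miR-27a-5p and hsa-miR-3614-5p) and in 2 of the 8 lower arms (hsa-miR-222-3p and hsa-miR-103a-3p), against 12.6% of RefSeq.

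**Figure D2:**
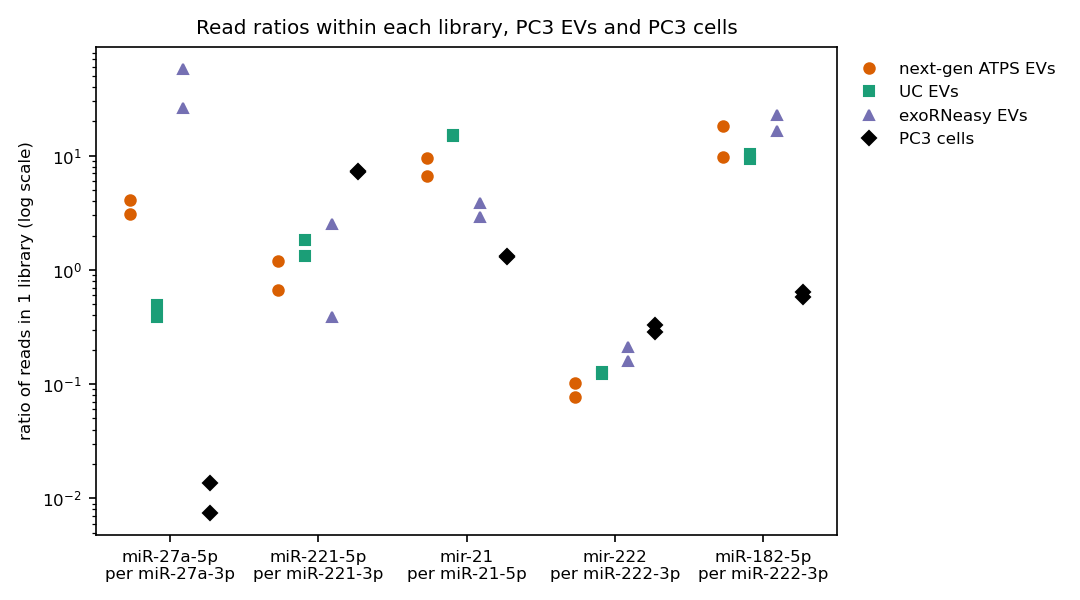
Ratios of reads within a library (log axis) for pairs of miRNA entries, with a point for each next-gen ATPS, UC and exoRNeasy EV library and each PC3 cell library. For hsa-miR-27a-5p over hsa-miR-27a-3p the EV points span 0.389 to 57.3 and the cell points lie at 0.00746 and 0.0135.

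A set of entries named as miRNA hairpins lies over snoRNA genes. Of these, 3 of the 4 tested were lower in all 3 methods (median log2 difference -3.63), beside 20% of all tested entries. Of the 3, hsa-mir-3607 passed the filter through cells alone, so its direction was set by the filter. The first, hsa-mir-1291, lies at chr12:48654444-48654530 and overlaps most of its length with SNORA2C (chr12:48654382-48654518), an H/ACA snoRNA in an intron of KANSL2. Its reads were 97 and 82 in next-gen ATPS EVs, 422 and 301 in those of UC and 84 and 75 in those of exoRNeasy, against 10045 and 27372 in cells. In the snoRNA table SNORA2C had 94 and 75, 401 and 283, and 79 and 72 reads in the same EV libraries, against 9540 and 26019 in cells, that is 0.915 to 0.969 reads for each hsa-mir-1291 read. The pair thus carried nearly the same counts in every library under a miRNA and a snoRNA name. As a share of miRNA it was 12.0-fold lower in EVs (log2 difference -3.61, SE 0.14, limma adjusted p 4.31e-08). As a share of snoRNA it was 1.10-fold lower and did not pass the test (log2 difference -0.24, SE 0.14, limma adjusted p 0.163). A like pair was hsa-mir-3653, 13.3-fold lower within miRNA, and SNORD125, 1.12-fold lower within snoRNA (log2 difference -0.36, SE 0.45, limma adjusted p 0.505). A pair that differed was hsa-mir-1248 and SNORA81, with 3 to 25 and 4 to 26 reads in EVs, against 13 and 39 reads of the hairpin and 41 and 96 reads of the snoRNA in cells. Their counts did not match in cells, and both stood higher in EVs (log2 difference 1.34 within miRNA and 2.89 within snoRNA). Both passed the filter through EVs alone, so their direction was set by it.

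Among snoRNAs, 59 of 212 tested (27.8%) were higher in EVs of all 3 methods and 16 (7.55%) were lower. All EV values lay above both cell values in 76 of the 212 (35.8%) and below both in 33 (15.6%). This held for every called snoRNA. On average over methods 89 were higher (42%) and 41 lower (19.3%), and 103 differed between the methods (48.6%). The median log2 difference was 0.11, which TMM moved to -0.04. With TMM the shared split was 52 higher and 25 lower, and 52 of the 59 and 16 of the 16 kept their call. Of the 59, 32 passed the filter through EVs alone, so the filter largely set their direction. Among these were SNORD89, SNORA71D, SNORA66, SNORA44, SNORA71B, SNORD94, SNORD67, SNORD3E, SNORD22, SNORA73B and the entry U3, and values given for them below are descriptions. Without cell replicate 1 the shared lower count was 10, and the lower count on average was 23 without cell replicate 1 and 25 without cell replicate 2. Read lengths kept in these libraries are shorter than most snoRNAs, so each value counts fragments.

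Sequences of snoRNAs with the largest or best-measured differences are given from GENCODE v44 (GRCh38), 5′ to 3′ with T for U. Capitals mark the C box (TGATGA) and D box (CTGA) of C/D snoRNAs and the ACA of H/ACA snoRNAs. They are shown so that the classes can be told apart.
SNORD20 (chr2:231456444-231456523, minus strand): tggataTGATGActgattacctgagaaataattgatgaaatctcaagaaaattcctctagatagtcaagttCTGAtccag
SNORD89 (chr2:101272936-101273049, minus strand): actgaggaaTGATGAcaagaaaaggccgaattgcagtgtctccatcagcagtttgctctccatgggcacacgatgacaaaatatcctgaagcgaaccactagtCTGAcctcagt
SNORA71D (chr20:38433865-38433998, minus strand): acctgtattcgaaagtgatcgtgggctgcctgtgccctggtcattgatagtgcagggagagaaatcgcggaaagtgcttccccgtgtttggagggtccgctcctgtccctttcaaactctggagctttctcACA
SNORA66 (chr1:92840719-92840851, plus strand): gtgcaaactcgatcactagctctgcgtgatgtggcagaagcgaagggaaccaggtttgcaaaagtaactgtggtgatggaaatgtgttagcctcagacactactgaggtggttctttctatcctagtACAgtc
SNORD101 (chr6:132815307-132815379, plus strand): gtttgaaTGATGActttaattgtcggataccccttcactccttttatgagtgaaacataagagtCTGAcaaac
SNORD49A (chr17:16440036-16440106, plus strand): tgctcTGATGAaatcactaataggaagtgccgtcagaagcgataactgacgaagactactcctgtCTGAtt
On the RNA strand, TGATGA within the first 20 bases was found in 103 of the 154 tested C/D snoRNAs with a sequence (66.9%) and CTGA within the last 20 in 144 (93.5%). ACA within the last 8 bases was found in 43 of 48 H/ACA snoRNAs (89.6%).

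**Figure D3:**
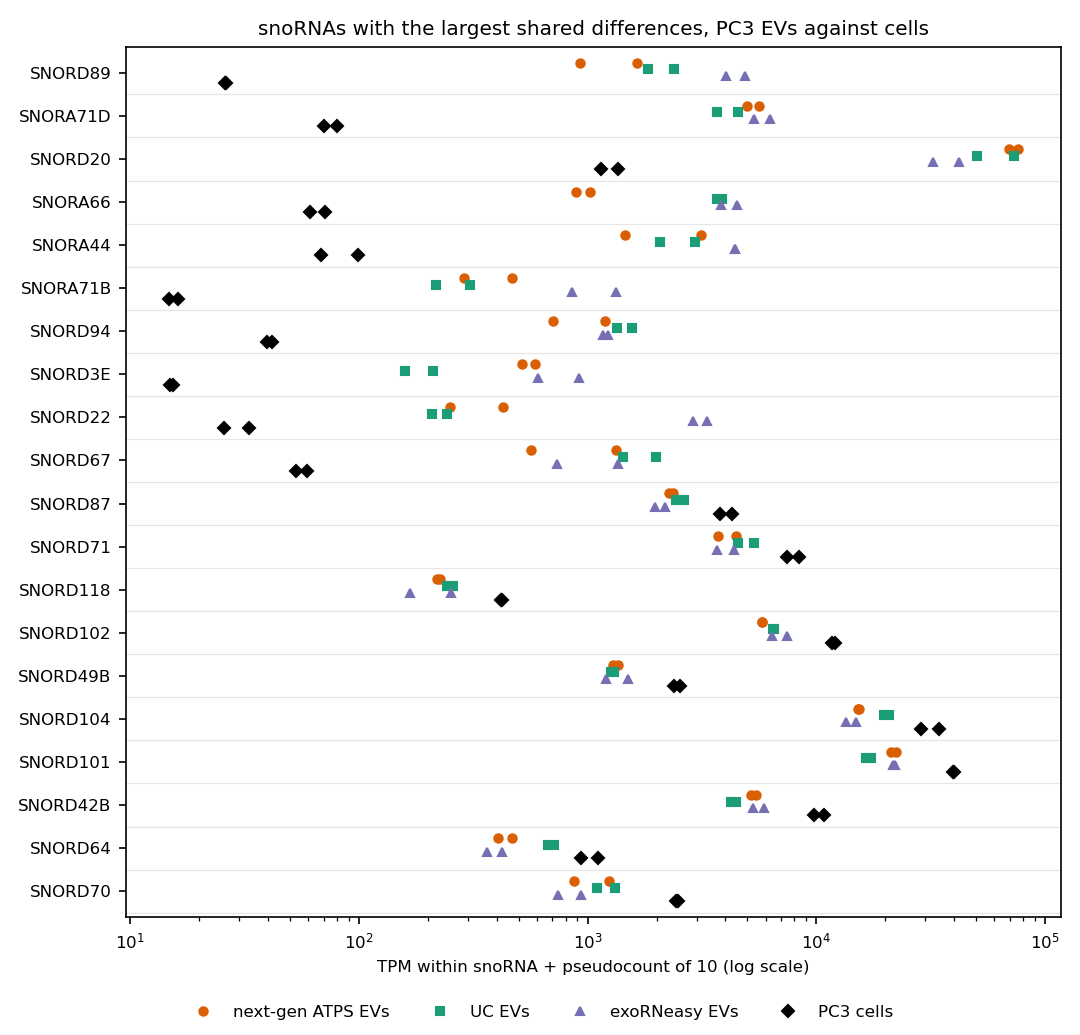
TPM within snoRNA plus a pseudocount of 10 (log axis) for the snoRNAs with the largest shared differences, with a point for each next-gen ATPS, UC and exoRNeasy EV library and each PC3 cell library. SNORD89 lies at 915 to 4866 TPM in EVs against 16.3 and 15.9 TPM in cells, and SNORD101 at 16474 to 22231 TPM in EVs against 39570 and 40156 TPM in cells.

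The largest shared rise was in SNORD89, a C/D snoRNA in an intron of RNF149. It stood at 1627 and 915 TPM in next-gen ATPS EVs, 1833 and 2378 in those of UC and 4866 and 4023 in those of exoRNeasy, against 16.3 and 15.9 TPM in cells. The groups were far apart (log2 difference 6.43, SE 0.21, limma adjusted p 4.66e-10), and exoRNeasy EVs were the highest. SNORD89 passed the filter through EVs alone, so this p-value is a description.

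A more abundant snoRNA with a large rise was SNORD20, a C/D snoRNA in an intron of NCL, the gene of nucleolin. Its level was 76390 and 69486 TPM in next-gen ATPS EVs, 50238 and 72965 in those of UC and 42201 and 32456 in those of exoRNeasy, against 1134 and 1347 TPM in cells. EVs lay above cells throughout and averaged 46.2-fold higher (log2 difference 5.46, SE 0.14, limma adjusted p 6.3e-10). Per read of SNORD49A there were 0.175 to 0.413 reads of SNORD20 in EVs, against 0.00783 and 0.00845 in cells.

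Next among the higher snoRNAs were H/ACA members. SNORA71D, in SNHG17, stood at 4950 and 5612 TPM in next-gen ATPS EVs, 3676 and 4522 in those of UC and 5315 and 6260 in those of exoRNeasy, against 69.8 and 60.3 TPM in cells (log2 difference 6.06, SE 0.14, limma adjusted p 3e-11). SNORA66, in an intron of the ribosomal protein gene RPL5, stood at 883 and 1012 TPM in next-gen ATPS EVs, 3874 and 3662 in those of UC and 3818 and 4494 in those of exoRNeasy, against 61.0 and 50.8 TPM in cells (log2 difference 5.23). In both, every EV library lay above the cells, and SNORA66 was lowest among EVs in the next-gen ATPS libraries. Both passed the filter through EVs alone, so the p-value of SNORA71D is a description. SNORA44 in SNHG12 and SNORA71B in SNHG17 had differences of 5.12 and 4.92.

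The H/ACA class as a whole held 2.48% and 2.12% of snoRNA TPM in next-gen ATPS EVs, 2.79% and 2.80% in those of UC and 2.85% and 3.04% in those of exoRNeasy, against 0.882% and 0.820% in cells. The share averaged 2.68% ± 0.328 in EVs (SD, n = 6) and 0.851% ± 0.0436 in cells (SD, n = 2), 3.15-fold higher in EVs. Over all 212 tested snoRNAs, 27.8% were higher and 7.55% lower in all 3 methods. Of 51 tested H/ACA snoRNAs 22 were higher in all 3 methods, with a median log2 difference of 1.83. Of the 51, 39 averaged below 100 TPM in cells and did not pass the filter through cells alone, so their direction was largely set by the filter and the count is a description. Of 155 tested C/D snoRNAs 34 were higher and 16 lower, with a median of -0.16.

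The level in cells differed between the classes and moved with the result. Of the C/D snoRNAs at 1000 TPM or more in cells, 11 of 72 were higher and 15 lower, with a median log2 difference of -0.23, and the 3 H/ACA snoRNAs at that level were not called. From 100 to 1000 TPM, 14 of 57 C/D snoRNAs were higher (median -0.16) and 1 of 9 H/ACA snoRNAs was higher (median 0.11). Below 100 TPM in cells, 9 of 26 C/D snoRNAs were higher (median 1.68) and 21 of 39 H/ACA snoRNAs were higher (median 2.39). Species in this lowest range could not pass the filter through cells alone, so these counts are a description. The part of level in the class difference was not tested further.

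**Figure D4:**
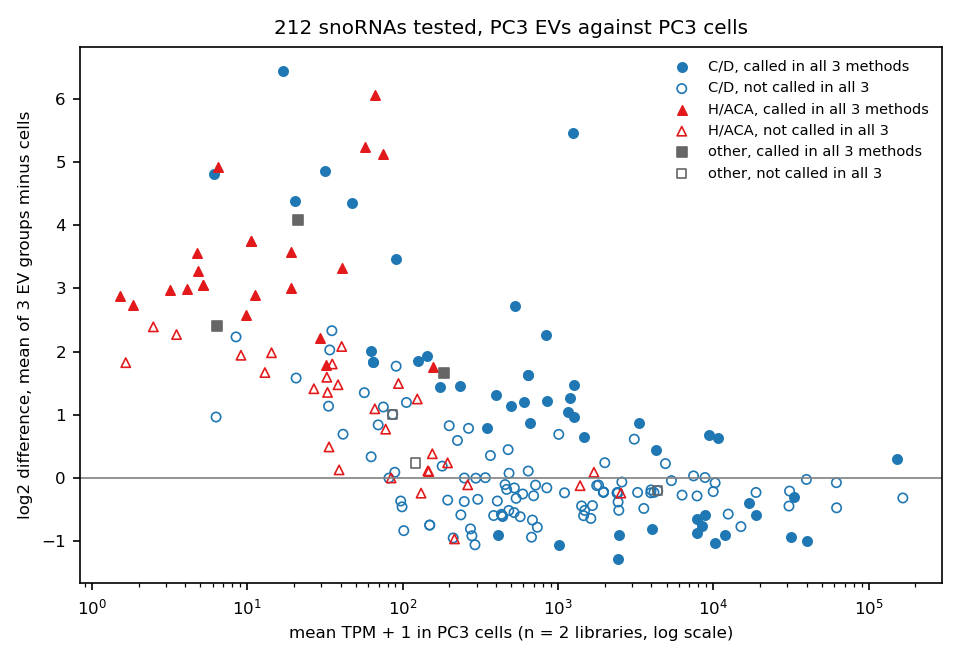
Log2 difference of EVs against cells for each tested snoRNA against its mean TPM plus 1 in cells (log axis), with C/D box, H/ACA box and other members in different colours and filled symbols for those called in all 3 methods. H/ACA points lie mostly below 100 TPM in cells, where their median is 2.39 and that of C/D points is 1.68.

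The snoRNAs of pre-rRNA processing include U3 and U14. U3 is needed to cut the rRNA precursor. All 6 tested entries of the U3 list, named SNORD3, were higher in all 3 methods, with a median log2 difference of 1.42. An entry named U3, outside that list, stood higher (log2 difference 4.08), at a mean of 20.3 TPM in cells. It passed the filter through EVs alone, so its direction was set by the filter. The U3 copies are near identical and their reads are uncertain. When all 16 libraries were fitted together, SNORD3A, SNORD3C and SNORD3D lost the call (largest limma adjusted p 0.132, 0.15 and 0.0821). That fit includes MDA-MB-231 cell replicate 2, with 16635 snoRNA reads against 3900437 in its replicate, which may widen the common spread. U14, with a like role, had 2 of 5 entries higher (median 1.77). Over all tested snoRNAs 27.8% were higher and 7.55% lower in all 3 methods. Over the list of 15 processing snoRNAs 9 were higher and 1 was lower (median 1.63), of which 5 are U3 copies. Of the 9, SNORD22 and SNORA73B passed the filter through EVs alone. The fit of 16 libraries ended 6 of these 9 calls and left SNORD3B-1, SNORD3B-2 and SNORD22. The lower one was SNORD118 (U8), which acts on the large subunit rRNA, at -0.90. Its call was lost without either UC or either cell library and under 4 other alternatives. Among the higher ones, SNORD14D lost its call without either cell library or next-gen ATPS replicate 2, and SNORA73B without next-gen ATPS replicate 1 or cell replicate 2.

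Other C/D snoRNAs that were higher included SNORD94, in an intron of PTCD3, which is known to guide a site in the spliceosomal U6 RNA. It stood at 698 to 1550 TPM in EVs and at 31.5 and 29.4 TPM in cells (log2 difference 4.85). SNORD67 in CKAP5 differed by 4.34 and SNORD3E, a U3 entry, by 4.81. Of the 6 tested snoRNAs hosted by SNHG1, 1 was higher in all 3 methods, and this was SNORD22, at 418 and 241 TPM in next-gen ATPS EVs, 198 and 234 in those of UC and 3331 and 2865 in those of exoRNeasy, against 23.1 and 15.8 TPM in cells. Its EV levels were therefore above cells in each library and highest in exoRNeasy EVs. The median of the SNHG1-hosted list was -0.24, and 27.8% of all tested snoRNAs were higher in all 3 methods. Of the 4 tested snoRNAs hosted by RPL13A, 2 were higher, SNORD33 and SNORD35A (median 0.90), and SNORD35A lost its call without either cell library, either next-gen ATPS library or exoRNeasy replicate 2.

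The lower snoRNAs were all C/D box members and their differences were small beside the rises. SNORD70 in NOP58 stood at 860 and 1228 TPM in next-gen ATPS EVs, 1308 and 1093 in those of UC and 730 and 922 in those of exoRNeasy, against 2430 and 2472 TPM in cells (log2 difference -1.28, SE 0.17). SNORD101, in an intron of RPS12, stood at 21265 and 22231 TPM in next-gen ATPS EVs, 17311 and 16474 in those of UC and 21709 and 21997 in those of exoRNeasy, against 39570 and 40156 TPM in cells. Its groups did not overlap and its spread was narrow (log2 difference -0.99, SE 0.05, limma adjusted p 4.15e-08). SNORD64, SNORD42B in RPL23A, SNORD104 in SNHG25 and SNORD102 in RPL21 followed at -1.06, -1.02, -0.93 and -0.90. SNORD64 lost its call without either UC or either cell library. When all 16 libraries were fitted together, with the shallow MDA-MB-231 cell library among them, 1 snoRNA was lower in all 3 methods. There the largest limma adjusted p of SNORD70 was 0.0565 and that of SNORD101 was 0.0678. By length the lower C/D snoRNAs had a median of 72.5 bases and the higher ones of 88, beside 83 for all tested C/D snoRNAs.

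The most abundant snoRNA in EVs, SNORD49A, stood at 185131 and 197669 TPM in next-gen ATPS EVs, 193977 and 187528 in those of UC and 172658 and 185491 in those of exoRNeasy, against 144941 and 159382 TPM in cells. The EV values lay above the cell values (log2 difference 0.30, SE 0.05, limma adjusted p 0.000242), but the call ended under TMM, where the largest limma adjusted p was 0.954, in edgeR and DESeq2, and without exoRNeasy replicate 2. The 22 tested members of the imprinted SNORD115 and SNORD116 arrays, which are expressed mainly in brain, had a median of -0.23. None was called by limma in all 3 methods, nor at an unadjusted p under 0.05 or by edgeR or DESeq2. The 10 most abundant snoRNAs held 62.2% ± 2.15 of snoRNA TPM in EVs (SD, n = 6) and 64.8% ± 1.17 in cells (SD, n = 2).

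In the circRNA table a few entries filled the EV libraries. The 8 entries hsa_circ_0040314, hsa_circ_0040317, hsa_circ_0040320, hsa_circ_0040322 and hsa_circ_0040325 to hsa_circ_0040328 held nearly identical values, and each had 115121 to 118298 TPM in EVs against 2044 and 1964 TPM in cells (log2 difference 5.87, SE 0.02). Their sum was 94.3% and 94.6% of circRNA TPM in next-gen ATPS EVs, 93.2% and 94.2% in those of UC and 92.8% and 92.1% in those of exoRNeasy, against 1.64% and 1.57% in cells. They count as 1 observation. Reads of hsa_circ_0040314 per miRNA read were 3339 and 3989 in next-gen ATPS EVs, 1334 and 1474 in those of UC and 5341 and 6304 in those of exoRNeasy, against 1.33 and 1.37 in cells. The host genes of these entries were not looked up here.

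Of 2164 circRNA entries tested, 337 (15.6%) were higher in all 3 methods and 1668 (77.1%) lower. All EV values lay above both cell values in 351 (16.2%) and below both in 1671 (77.2%). On average over methods 430 were higher (19.9%) and 1701 lower (78.6%), and 1035 differed between the methods (47.8%). Entries that hold the same read counts left 262 different profiles among the higher and 1266 among the lower. The median log2 difference was -1.77, and TMM moved it to -0.08, with a shared split of 597 higher and 920 lower. All 337 higher entries and 920 of the 1668 lower ones kept their call. Of the higher entries, 259 passed the filter through EVs alone, and of the lower entries 1251 passed it through cells alone. The filter thus largely set the direction of these.

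Among the lower entries, the largest difference was in hsa_circ_0077875, at 6.45 and 5.94 TPM in next-gen ATPS EVs, 10.5 and 8.56 in those of UC and 7.98 and 8.16 in those of exoRNeasy, against 6265 and 6408 TPM in cells (log2 difference -9.49). Its read count was that of SNORD101 within 0.328% in all 8 libraries, and SNORD101 differed by -0.99 within snoRNA. The entry hsa_circ_0022552 stood at 37.4 to 84.7 TPM in EVs and at 26378 and 27005 TPM in cells (log2 difference -8.87). The cell values lay above all EV values in both.

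Read counts of circRNA entries were matched with those of snoRNAs, a comparison chosen after the data were seen. Of the circRNA entries tested, 81 had the read count of 1 of 126 snoRNAs within 1% in all 8 libraries, and 37 snoRNAs were so matched. All 81 were among the 1668 lower entries (4.86%) and 0 among the 337 higher, beside 77.1% lower over all tested entries. These calls are without TMM scaling, with which 920 of the 1668 kept their call. How many of the 81 are among the 920 is not given here, so their direction may depend on the scaling. They held 0.0343% to 0.0781% of circRNA TPM in EVs, against 20.4% and 20.8% in cells. Their log2 differences within circRNA ran from -9.49 to -2.19, while the matched snoRNAs ran from -1.02 to 5.46 within snoRNA, where 9 of the 37 were higher and 7 lower in all 3 methods. The entry hsa_circ_0092300 matched SNORD20 within 1 read, with a difference of -3.15 within circRNA and 5.46 within snoRNA. The entry hsa_circ_0013187 matched SNORA66 exactly, with 38 and 42 reads in next-gen ATPS EVs, 391 and 345 in those of UC and 204 and 229 in those of exoRNeasy, against 217 and 551 in cells, and its difference was -2.19 within circRNA and 5.23 within snoRNA. Of the 37 matched snoRNAs, 14 had a positive difference within snoRNA. Class totals differed: circRNA reads were 142316297 and snoRNA reads 43029 in next-gen ATPS replicate 1, against 22455448 and 3555333 in cell replicate 1. With equal counts, an entry is thus bound to stand lower in EVs within circRNA than its snoRNA within snoRNA. Whether matched entries and snoRNAs count the same reads was not tested. Whether such entries count back-spliced RNA was not tested.

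**Figure D5:**
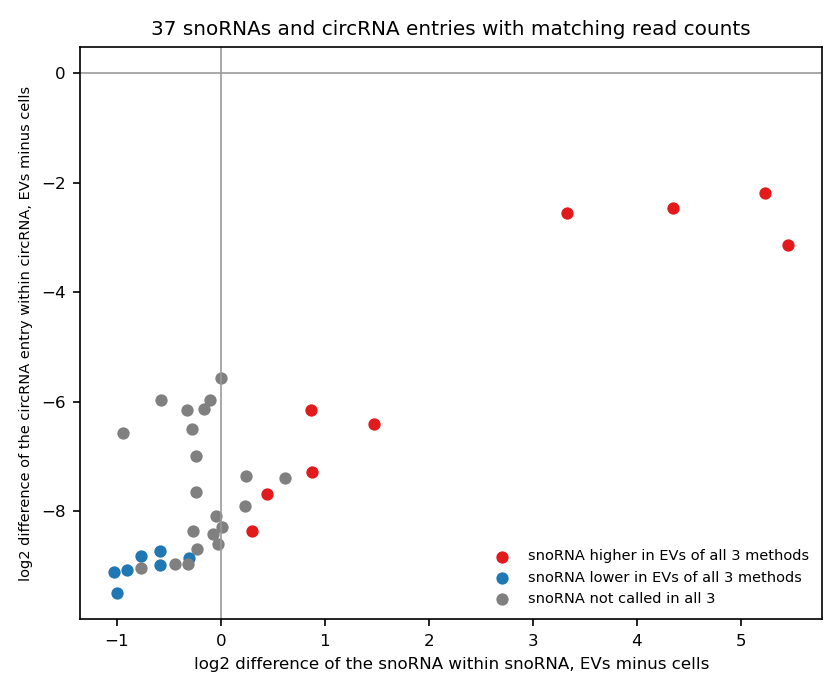
Log2 difference of EVs against cells within snoRNA (horizontal axis) and of a circRNA entry with matching read counts within circRNA (vertical axis), with 1 point for each of the 37 matched snoRNAs, coloured by the snoRNA's call in all 3 methods. Every point lies below 0 on the circRNA axis, at -2.19 or lower, while the snoRNA axis spans -1.02 to 5.46. The class totals, which differ between EVs and cells, place each point lower on the circRNA axis than on the snoRNA axis. Values on both axes are without TMM scaling.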

How the data were processed

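The authors trimmed and size-selected reads, aligned them with STAR to hg38 (also in the submitters' processing notes) and annotated them with COMPSRA, in versions not given in the sources used here. Deposited values are named TPM but are CPM within an RNA class: each column sums to the same total, and 99.6% to 100% of values above 0 were whole reads within 0.1 read. The test planned for TPM was kept.

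The 8 PC3 libraries were fitted with limma 3.58.1 (R 4.3.3; trend, robust) on log2(TPM + pseudocount) with 1 mean per group. Pseudocounts were 100, 10 and 1 and the filters 1000, 100 and 1 TPM in at least 2 libraries for miRNA, snoRNA and circRNA, since 1 miRNA read is worth up to 399 TPM. Adjusted p-values are Benjamini-Hochberg values over a class (threshold 0.05). The fit was also run on simulated counts in which the most abundant species were left unchanged. That run therefore does not cover shifts of dominant species such as those seen here. Alternatives were other pseudocounts, no filter, TMM scaling, shares without dominant species, all 16 libraries, a replicate block, each library left out, and edgeR 4.0.16 and DESeq2 1.42.0 on recovered reads. The fit of all 16 adds the MDA-MB-231 libraries, of which cell replicate 2 held 153 miRNA and 16635 snoRNA reads. Calls lost in that fit may reflect this library, which was not tested.

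Named species were, per class, the 10 largest shared differences each way without overlap (4 for circRNA), the 5 most abundant, called members of the lists, some chosen miRNAs and species seen in one material only (up to 5 each way). Members, lists and this rule were chosen with earlier results of these data known. Of the named species, 37 of 48 miRNA entries and 42 of 43 snoRNAs matched the annotation of GRCh38. SNORD62A and SNORD62B, SNORA17 and SNORA17A, SNORA50 and SNORA50C, and the U3 copies may share reads.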

Additional observations from a re-analysis of the deposited data

Results flagged for a closer look

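Several species that differed from cells in all 3 methods also differed between the 3 methods, by limma's test of the method differences over all species of a class. Among miRNA entries these were hsa-miR-27a-5p (adjusted p 9.26e-06), hsa-miR-425-5p (0.000289), hsa-mir-21 (0.00166), hsa-miR-663b (0.0108), hsa-miR-125a-5p (0.0108), hsa-miR-103a-3p (0.0155), and hsa-mir-3648-1 and hsa-mir-3648-2 (both 0.036). Among the higher snoRNAs they were, in the same limma test, SNORA66 (adjusted p 1.67e-05), SNORD22 (1.98e-05), SNORD33 (0.000246), SNORD89 (0.000543), SNORD3E (0.00215), SNORA71B (0.00361), SNORD20 (0.00374) and SNORD35A (0.00727). Among the lower snoRNAs limma gave SNORD101 (adjusted p 0.00122), SNORD104 (0.00232), SNORD64 (0.0115) and SNORD42B (0.0344). Each group holds 2 libraries, so single libraries were not checked for distance from their group. The extraction of RNA also differs between exoRNeasy and the other methods, and its part was not tested.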

How the results depend on the processing

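Counts of calls are by limma unless edgeR or DESeq2 is named, in the order higher then lower. Shared miRNA calls, 7 and 15 as reported, were 13 higher with TMM, 17 with edgeR and 13 with TMM and the block, and 9 lower with a pseudocount of 1, 7 without a filter, 3 without dominant species and 9 with 16 libraries. Average miRNA calls, 23 and 26, were 9 higher without a filter and 13 with 16 libraries, and 16 lower each without dominant species, with 16 libraries and with TMM and the block. Between methods, 23 miRNA entries became 12 without a filter and 15 with 16 libraries. Shared snoRNA calls, 59 and 16, were 35 higher with 16 libraries, and 51 lower without a filter, 25 with TMM, 30 with edgeR, 28 with DESeq2 and 1 with 16 libraries. Average snoRNA lower calls, 41, were 76 without a filter, 71 with TMM, 85 with edgeR, 82 with DESeq2, 10 with 16 libraries and 62 with TMM and the block, and the 103 between methods were 27 with 16 libraries. Shared circRNA calls, 337 and 1668, were 597 higher with TMM, 1584 without dominant species, 645 with edgeR, 678 with DESeq2 and 604 with TMM and the block, and 15474 lower without a filter, 920 with TMM, 871 with edgeR, 777 with DESeq2 and 916 with TMM and the block. Average circRNA calls, 430 and 1701, were 1024 higher without a filter, 735 with TMM, 2547 without dominant species, 735 with edgeR, 775 with DESeq2 and 739 with TMM and the block, and 22431 lower without a filter, 1057 with TMM, 1021 with DESeq2 and 1062 with TMM and the block. Between methods, 1035 circRNA entries became 215 without a filter, 2931 without dominant species and 218 with 16 libraries. Collapsing entries of the same read counts before the shares were taken, chosen after seeing the data, as was TMM with the block, gave 377 higher and 1304 lower circRNA entries.

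Leaving out 1 library in turn gave 6 to 12 higher and 9 to 22 lower shared miRNA entries, 8 to 27 and 15 to 35 on average and 19 to 42 between methods. For snoRNA it gave 41 to 62 and 10 to 17 shared, 64 to 91 and 23 to 47 on average and 69 to 114 between methods. For circRNA it gave 330 to 342 and 1667 to 1672 shared, and 772 to 1266 between methods. The share of the 10 most abundant entries was higher in EVs by 4.27 to 5.43 percentage points for miRNA and 71.4 to 72.2 for circRNA. No call of a named species was replaced by a call in the opposite direction under any alternative run. That check covers calls only, so the sign of each difference under the alternatives is not given here. It left out the circRNA entries that are named only because their read counts match those of snoRNAs. Libraries of the same replicate number did not deviate together, with 5 of 6 correlations under 0.1 in each class, so the numbers do not pair the libraries. With a replicate block the shared counts were 7 and 12 for miRNA, 58 and 14 for snoRNA and 338 and 1668 for circRNA.

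MiRNA values in EVs rest on 2508 to 14612 reads, so entries near the filter rest on a few reads. The causes of these changes were not tested.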

Other observations

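The snoRNA entries seen in cells alone were below reach in EVs. SNORD114-11, at 3.94 and 5.44 TPM in cells, had 0 of 384074 EV snoRNA reads, which allows up to 7.81 TPM, so no difference was detectable at this depth. In total 47 of 404 detected snoRNA entries had reads in both cell libraries and 0 in all EV libraries, and 0 had the reverse. The counts are not like for like, since the cell libraries held far more snoRNA reads.

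The precursor entry hsa-mir-27a stood at 597 and 650.5 TPM in next-gen ATPS EVs, 0 and 68.9 in those of UC and 7274 and 3588.5 in those of exoRNeasy, against 58.1 and 71.9 TPM in cells. The exoRNeasy libraries were the highest of the 8, as they were for hsa-miR-27a-5p. The mature hsa-miR-361-3p went the other way among methods, at 38989.5 and 40113 TPM in next-gen ATPS EVs, 44073 and 36238 in those of UC and 2530 and 2791 in those of exoRNeasy, against 24258 and 25511 TPM in cells.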
